A study of Mus musculus with 9 samples.

Results

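Exosomes from wild-type bone marrow-derived macrophages (BMDM) were added to other wild-type BMDM for 18 hours, and the transcriptome was compared with that of BMDM given PBS, the vehicle. The comparison used 6 of the 9 RNA-seq libraries of the series, 3 per group, and 13815 of the 55536 listed genes had enough counts to be tested. The other 3 libraries, from wild-type BMDM given exosomes of ApoE-deficient BMDM, entered the same fit and were used to ask whether a difference from PBS held for wild-type exosomes over the other kind. All recipient cells were wild-type BMDM from male mice 6 to 12 weeks old, grown with fetal bovine serum and with M-CSF, the factor that turns marrow cells into macrophages, at 25 ng/mL over 6 days. Both exosome groups received 2e+09 particles/mL and differed in the genotype of the donor cells. PBS carries no particles, so an effect of vesicles and an effect of anything else in the preparations cannot be told apart. The design text calls the libraries biological replicates, but no source used here says whether they came from separate mice or exosome preparations, so each p reflects how far these libraries spread.

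Exosomes are small vesicles that form inside endosomes and are released when these fuse with the cell surface. A macrophage that takes them up delivers them to endosomes and lysosomes, where proteases, hydrolases and a proton pump break down the cargo. Selenoproteins carry the amino acid selenocysteine, built in at a recoded stop codon, and most of those with a known role handle peroxides or thiols. The mRNAs of Gpx1 and Selenow are textbook examples of messages that fall when selenium is short. ATF4 is the transcription factor of the integrated stress response and switches on amino acid synthesis, transport and tRNA charging when amino acids run low. NRF2 switches on glutathione, thioredoxin and NADPH supply and heme breakdown, and NF-kB switches on inflammatory genes and its own inhibitors.

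The 6 libraries held 29501297 to 35407508 counts, and TMM scaling factors were between 0.995 and 1.01. All 12 defining macrophage markers were detected in every library. Replicate 3 of wild-type exosomes stood apart on the first principal component (57.48, against -16.83 to 3.43 for the other 8 libraries). Replicate 2 of wild-type exosomes lay at 1 end of the second (-45.4) and replicate 2 of ApoE-deficient exosomes at the other (38). These components held 15.19% and 15.15% of the variance. Libraries are named below by group and replicate, with WT for wild-type exosomes and EKO for ApoE-deficient exosomes. The tests were repeated under 17 alternatives (9 of them leaving out a library). A gene named as changed kept its call in all of them unless the paragraph says where it was lost. Counting may not have used strand, so reads of overlapping genes cannot be told apart. Among genes named below, exons of another gene covered 68.67% of the exon length of Itgam, 34.37% of Ctsd, 28.06% of Slc15a3, 26.85% of Ctsl, 24.57% of Piezo1, 19.05% of Bhlhe41, 18.75% of Spp1 and 18.27% of Cxcl16. They covered 15.63% of Flvcr1, 15.34% of Pkm, 15.15% of Pilra, 15.12% of Aars and 15.12% of Csf1r. Smaller overlaps are not listed.

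Wild-type exosomes changed many genes by small amounts. In edgeR's quasi-likelihood test with Benjamini-Hochberg adjustment, 568 genes passed an adjusted p of 0.05 (4.11% of those tested), of which 267 were higher (1.93%) and 301 lower (2.18%). The median absolute log2 fold change of called genes was 0.247, and the median over all genes tested was -0.00335. Rapgef3, which encodes a cyclic AMP-activated exchange factor, was the single called gene with a log2 fold change of 1 or more, while 14 called genes were at -1 or below. Of those, Ptger3 and Gm37035 were listed at 0 CPM in every wild-type exosome library, where a fitted fold change is no bound. Without WT 3, 416 genes passed, 380 of them shared with the full set. The PBS and exosome libraries did not overlap for 2412 of the genes tested (17.5%), 1187 higher (8.59%) and 1225 lower (8.87%) with exosomes. They did not overlap for 265 of the 267 genes called higher and 294 of the 301 called lower. The calls rest on the same libraries, so the lack of overlap describes called genes and is not separate support. With 3 libraries per group, some genes separate even where nothing differs. Genes named by fold or p below were also picked for it.

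The level of a gene set how small a change could be called. Of 249 genes at 500 CPM (CPM, counts scaled to a common library size) or more, 34.1% were called, 48 higher and 37 lower, and the median half-width of their 95% intervals was 0.0635 on the log2 scale. Of 4325 genes under 5 CPM, 0.301% were called, all 13 of them lower, and that half-width was 1.46. Changes of the usual size were therefore not detectable in genes of low count. The shares over all genes, 1.93% higher and 2.18% lower, are the background for list counts against PBS below. Lists of highly expressed genes can hold more calls than that. The called genes were mostly protein-coding, 266 of 267 among the higher and 290 of 301 among the lower, with median exon lengths of 5253 and 5024 bases against 4117 for all genes tested.

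**Figure D1:**
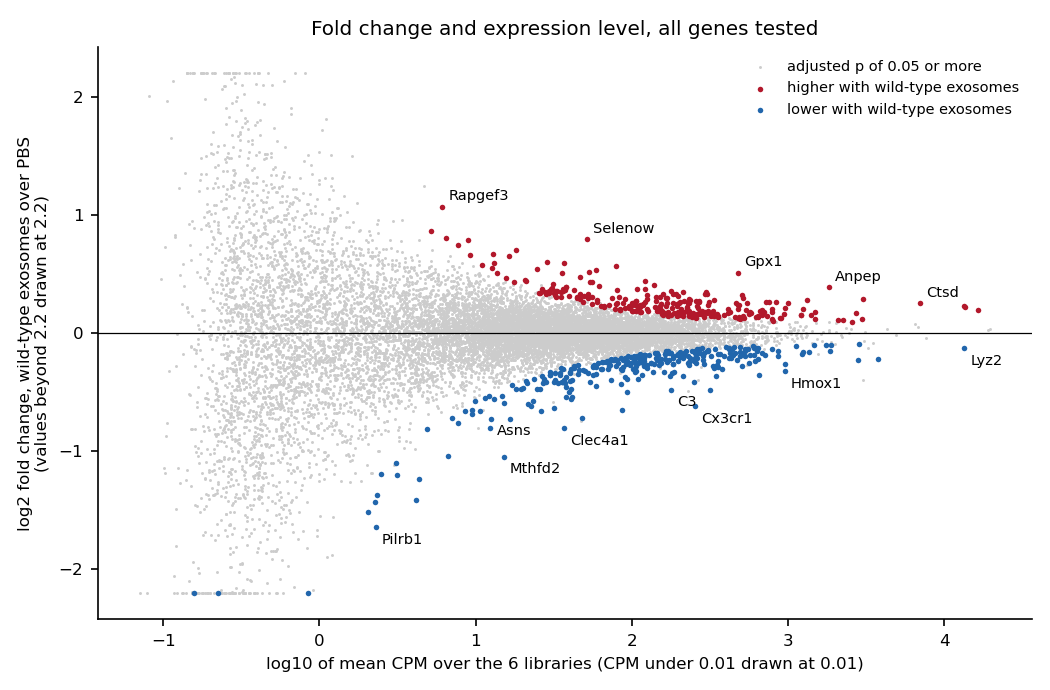
Log2 fold change of wild-type exosomes over PBS (vertical axis) against the log10 of the mean CPM over the 6 libraries (horizontal axis), 1 point per gene tested. Red points are the 267 genes called higher and blue points the 301 called lower; called changes become smaller as the level rises, and those below -1 lie at low levels.

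Selenoprotein mRNAs moved apart from each other. Of 24 genes in the list, 20 were tested, 5 rose and 2 fell (backgrounds 1.93% and 2.18%), and the median log2 fold change was 0.07. The glutathione peroxidase gene Gpx1 (ENSMUSG00000063856, chr9:108338903-108340343, plus strand, GRCm38) had 393, 378 and 409 CPM with PBS and 571, 559.9 and 552 CPM with wild-type exosomes. Each exosome library was above each PBS library, at a log2 fold change of 0.51 ± 0.035, adjusted p = 7.95e-13. Selenow (ENSMUSG00000041571, chr7:15917208-15922402, minus strand), which encodes a small thioredoxin-like protein, had 42.1, 33.3 and 38.3 CPM with PBS and 71.5, 59.9 and 65.7 CPM with wild-type exosomes. The groups did not overlap, and the log2 fold change was 0.80 ± 0.085, adjusted p = 6.78e-08. Gpx3, the secreted glutathione peroxidase, had 49.8, 46.7 and 49.3 CPM with PBS and 76.3, 67.6 and 66.6 CPM with wild-type exosomes, a log2 fold change of 0.53 ± 0.072, adjusted p = 4.05e-06. Selenom, an endoplasmic reticulum protein of the thioredoxin fold, had 19.1, 19.1 and 21.9 CPM with PBS and 28.00, 27.8 and 31.9 CPM with wild-type exosomes (0.54 ± 0.11, adjusted p = 0.00109). Selenoh, a nuclear redox protein, had 5.94, 8.39 and 5.33 CPM with PBS and 10.1, 13.4 and 10.5 CPM with wild-type exosomes (0.79 ± 0.20, adjusted p = 0.0136), with the widest standard error of the 5. Selenoh lost its call against PBS without PBS 1 (adjusted p = 0.0762) or 3 (0.096) or WT 2 (0.126).

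Other selenoproteins fell or did not pass. Txnrd1, the cytosolic thioredoxin reductase, had 555, 487 and 531 CPM with PBS and 489, 442 and 443 CPM with wild-type exosomes. All exosome libraries were lower, at a log2 fold change of -0.20 ± 0.039, adjusted p = 0.00131. Sephs2, which makes the selenium donor for selenocysteine and is itself a selenoprotein, had 131, 122 and 132 CPM with PBS and 118, 102 and 103 CPM with wild-type exosomes (-0.25 ± 0.06, adjusted p = 0.00722). Exons of another gene cover 36.38% of Sephs2. Gpx4, which reduces lipid peroxides in membranes, did not pass, with a log2 fold change of -0.13 ± 0.069 and a 95% interval of -0.27 to 0.01. Msrb1, a methionine sulfoxide reductase, was at 0.00 ± 0.046 (interval -0.09 to 0.09) and Selenot at -0.05 ± 0.062 (interval -0.17 to 0.08). The plasma selenium carrier Selenop had 2023, 1924 and 1960 CPM with PBS and 2086, 2076 and 2105 CPM with wild-type exosomes. Its exosome libraries were all higher than its PBS libraries, but the log2 fold change of 0.09 ± 0.027, adjusted p = 0.0646 missed the threshold. Of 11 genes of the machinery that inserts selenocysteine, 0 passed in edgeR, DESeq2 or limma-voom and 2 had an unadjusted p under 0.05, with a median of 0.07 and the largest value at 0.20 ± 0.14 for Sepsecs. Sephs2 lost its call against PBS without WT 2 (adjusted p = 0.0799) or 3 (0.0659).

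Gpx1, Selenow and Gpx3 were lower with exosomes of ApoE-deficient macrophages than with those of wild-type macrophages. Between the exosomes, 96 genes differed in all (0.695% of those tested), 39 higher (0.282%) and 57 lower (0.413%) with ApoE-deficient exosomes. This comparison shares the wild-type exosome libraries with that against PBS, so a high or low value in those libraries enters both with opposite signs. Gpx1 had 333, 345 and 330.3 CPM with ApoE-deficient exosomes, below the PBS libraries, and the difference from wild-type exosomes was -0.74 ± 0.035, adjusted p = 1.64e-17 on the log2 scale. Selenow had 32.9, 32.3 and 33.4 CPM with ApoE-deficient exosomes, and differed by -0.9997 ± 0.086, adjusted p = 9.17e-10. Gpx3 differed by -0.54 ± 0.072, adjusted p = 1.32e-05, Selenop by -0.18 ± 0.027, adjusted p = 0.000118, and Txnrd1 in the other direction by 0.28 ± 0.039, adjusted p = 3.48e-05. Selenoh did not pass at -0.71 ± 0.20, adjusted p = 0.101, with a 95% interval of -1.12 to -0.31. Sephs2 did not pass either, at 0.20 ± 0.06, adjusted p = 0.162, interval 0.07 to 0.32. 

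Some genes of the ATF4 program were lower with wild-type exosomes. Atf4 itself had 117, 118 and 118 CPM with PBS and 89.6, 94.2 and 99.2 CPM with wild-type exosomes. Every exosome library was below every PBS library, at a log2 fold change of -0.32 ± 0.052, adjusted p = 7.74e-05. Its relative Atf5, also raised in the stress response, had 58.7, 67.1 and 71.4 CPM with PBS and 50.2, 54.01 and 51.1 CPM with wild-type exosomes (-0.34 ± 0.071, adjusted p = 0.00176). They were the 2 called genes of the 17 regulators tested. Kinases that start the response did not pass, with Eif2ak3 at -0.02 ± 0.079 and Eif2ak4 at 0.13 ± 0.069, nor did Ddit3, the gene of the pro-apoptotic factor CHOP, at 0.05 ± 0.14 (interval -0.23 to 0.33). Of 30 ATF4 targets tested, 8 fell (background 2.18%), and the median was -0.17 against -0.00335 for all genes. The number that fell was 6 to 10 over the alternatives, with 7 without WT 2 and 6 without WT 3.

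The 8 targets that fell were 2 tRNA synthetases, 2 enzymes of amino acid synthesis, the folate enzyme Mthfd2 and 3 amino acid carriers. Mthfd2 (ENSMUSG00000005667, chr6:83305691-83325908, minus strand), the mitochondrial folate dehydrogenase that supplies carbon units, had 18.8, 22.03 and 20.3 CPM with PBS and 8.35, 7.82 and 13.5 CPM with wild-type exosomes. Its exosome libraries were all lower but spread widely, and the log2 fold change was -1.04 ± 0.15, adjusted p = 1.05e-05. Asns, asparagine synthetase, had 13.8, 18.3 and 14.6 CPM with PBS and 8.77, 10.4 and 9.14 CPM with wild-type exosomes. Again no exosome library reached a PBS library, at a log2 fold change of -0.73 ± 0.14, adjusted p = 0.00111. Aldh18a1, which starts proline synthesis from glutamate, had 15.2, 16.2 and 15.8 CPM with PBS and 8.62, 10.5 and 7.97 CPM with wild-type exosomes (-0.80 ± 0.14, adjusted p = 0.000318). Aars, the alanyl-tRNA synthetase, had 114, 110.0 and 127 CPM with PBS and 96.8, 98.5 and 95.2 CPM with wild-type exosomes (-0.28 ± 0.053, adjusted p = 0.000714). The cysteinyl-tRNA synthetase Cars, from the synthetase list, fell (-0.42 ± 0.091, adjusted p = 0.00319), as did the asparaginyl enzyme Nars (-0.20 ± 0.042, adjusted p = 0.00261). Glul, glutamine synthetase, which is not on the ATF4 list, had 339, 298 and 309.9 CPM with PBS and 249, 265 and 276 CPM with wild-type exosomes (-0.26 ± 0.043, adjusted p = 6.84e-05).

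Of the amino acid carriers among these targets, Slc7a5 had low counts and Slc38a2 high ones. Slc7a5, which brings in leucine and other large amino acids, had 5.64, 5.74 and 6.996 CPM with PBS and 1.86, 1.80 and 4.15 CPM with wild-type exosomes (-1.24 ± 0.29, adjusted p = 0.00669), and Slc38a2, a carrier of small neutral amino acids, had 249, 213 and 226 CPM with PBS and 203, 194 and 199 CPM with wild-type exosomes (-0.21 ± 0.05, adjusted p = 0.00852). Not all of the program moved. Slc3a2, the partner chain of Slc7a5, was at 0.10 ± 0.04 (interval 0.02 to 0.18), and Shmt2, which feeds serine carbon to Mthfd2, at -0.09 ± 0.087 (interval -0.26 to 0.09). Phgdh, the first enzyme of serine synthesis, had a mean of only 1.58 CPM with PBS and an interval of -1.82 to 0.17. Over the whole list of 24 amino acid transporters 3 fell (1 without PBS 1 or WT 3, 5 with a replicate block) and 2 rose (1 without PBS 2, WT 1 or WT 3), with a median of -0.02. Of the 20 cytosolic tRNA synthetases, 3 fell, 1 rose (0 without PBS 1, 2 or 3, WT 1 or 3, or EKO 2) and the other 16 did not pass, with a median of -0.03. Slc38a2 lost its call against PBS without PBS 1 (adjusted p = 0.148) or WT 2 (0.0757) or 3 (0.0592), and Slc7a5 without WT 1 (0.0514) or 2 (0.0622). Slc6a9, the other carrier gene that fell, lost its call by limma-voom (adjusted p = 0.11) or without PBS 1 (0.0965) or 3 (0.0949) or WT 3 (0.128). Exons of other genes cover 30.25% of Slc6a9.

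The ATF4 element, searched as TGATGNAAN on both strands, was looked for in the promoters of the genes that fell. RefSeq promoters of GRCm38.p6 were read over the 250 bases before the gene start, and 8 of the 10 ATF4 regulators and targets that fell had an entry. The element was present in 2 of them, Asns being the one shown, and in 3.44% of all 32851 promoters (2.54% of those of genes tested). The window of Asns is chr6:7693213-7693242 on the minus strand, the strand of the gene, and capitals mark the match.
Asns: cccagccacaTGATGAAACttcccgcacgc
The match starts 23 bases before the start of Asns. It describes these letters and is not evidence of binding. The share among ATF4 list members that did not fall was not counted. 

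Amino acid genes of this program were higher with ApoE-deficient than with wild-type exosomes. Atf4 had 133, 140.4 and 129 CPM with ApoE-deficient exosomes, above the PBS libraries as well, and differed from wild-type exosomes by 0.51 ± 0.052, adjusted p = 6.97e-08 on the log2 scale. Mthfd2 had 22.2, 29.1 and 25.2 CPM with ApoE-deficient exosomes, a difference of 1.37 ± 0.15, adjusted p = 3.12e-07. Asns had 18.2, 21.1 and 25.2 CPM with ApoE-deficient exosomes, a difference of 1.19 ± 0.14, adjusted p = 2.11e-06. Differences also passed for Aldh18a1 (0.89 ± 0.14, adjusted p = 0.000295), Atf5 (0.56 ± 0.071, adjusted p = 4.26e-06), Aars (0.48 ± 0.053, adjusted p = 3.31e-07), Cars (0.65 ± 0.09, adjusted p = 2.2e-05) and Slc38a2 (0.34 ± 0.05, adjusted p = 5.77e-05). Of the 30 targets, 8 were higher with ApoE-deficient exosomes, and of the 20 synthetases 7 were higher (background 0.282%). Aars, Nars and Sars belong to both lists and are counted in both. Some of these calls between the exosomes were lost in fits without 1 exosome library. Of the 17 alternatives, Nars lost its call in 5, Mars in 5, Eprs in 4, Sars in 4 and the carrier gene Slc7a1 in 4. The tyrosyl-tRNA synthetase Yars passed between the exosomes (0.59 ± 0.11, adjusted p = 0.00118) and not against PBS (-0.33 ± 0.11, adjusted p = 0.0689). Glul did not pass between the exosomes, at -0.07 ± 0.043, adjusted p = 0.734. Slc38a2 lost its call against PBS without PBS 1 (adjusted p = 0.148) or WT 2 (0.0757) or 3 (0.0592).

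**Figure D2:**
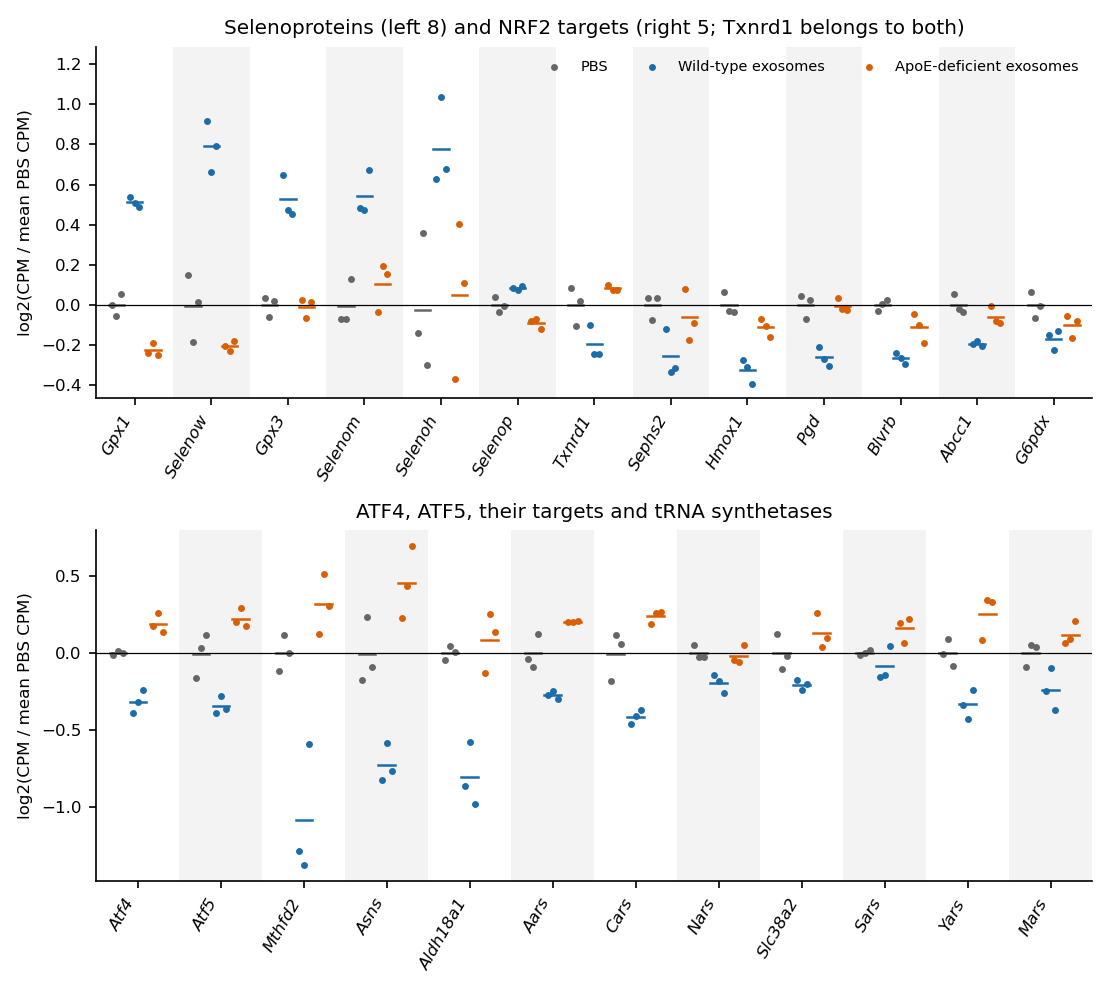
Each library's CPM over the mean of the PBS libraries, as log2 (vertical axis), for 13 selenoprotein and NRF2 genes (top) and 12 ATF4, target and tRNA synthetase genes (bottom); points are libraries and bars are means of the 3 log2 values of a group. Gpx1 is higher than PBS in all 3 wild-type exosome libraries and lower in all 3 ApoE-deficient exosome libraries, and Atf4 shows the reverse.

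Some NRF2 targets fell without a change in Nfe2l2, the gene of NRF2, that could be detected (-0.04 ± 0.036, adjusted p = 0.691, 95% interval -0.12 to 0.03). Of 27 tested, 9 fell (background 2.18%), with a median of -0.17. The number that fell was 6 to 12 over the alternatives, with 6 without WT 2 and 6 without WT 3. Hmox1, the heme oxygenase that opens the heme ring, had 1107, 1036 and 1033 CPM with PBS and 876, 855 and 806 CPM with wild-type exosomes. The groups did not overlap, and the log2 fold change was -0.32 ± 0.033, adjusted p = 2.79e-08. Blvrb, the gene of biliverdin reductase B, had 248, 255 and 259 CPM with PBS and 215, 211 and 207 CPM with wild-type exosomes (-0.27 ± 0.041, adjusted p = 2.61e-05). Pgd, an NADPH-making enzyme of the pentose phosphate pathway, had 1074, 993 and 1060 CPM with PBS and 900.4, 865 and 843 CPM with wild-type exosomes. All its exosome libraries were lower (-0.26 ± 0.032, adjusted p = 5.59e-07). G6pdx, the step before it, was lower by less (-0.17 ± 0.04, adjusted p = 0.00848), and the efflux pump Abcc1 was at -0.19 ± 0.035, adjusted p = 0.000332. Targets without a call included Nqo1, at -0.58 ± 0.26 with an interval of -1.12 to -0.05, and the ferritin chain Fth1, at 0.02 ± 0.023 with an interval of -0.02 to 0.07. The core TGACNNNGC of the antioxidant element, searched on both strands, was found in the 250-base promoter of 3 of the 5 fallen targets with an entry, Txnrd1, G6pdx and Gclm. It is common, with a match in 10.2% of all promoters. The share among NRF2 targets that did not fall was not counted. Gclm lost its call against PBS without PBS 3 (adjusted p = 0.0571) or WT 2 (0.14) or 3 (0.135) or EKO 2 (0.0508) or 3 (0.0552), and G6pdx without PBS 1 (0.103) or WT 2 (0.0961).

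Genes of iron traffic also changed. Slc40a1, ferroportin, which exports iron, had 511, 496 and 518 CPM with PBS and 445, 424 and 435 CPM with wild-type exosomes, and the exosome libraries were all lower (-0.23 ± 0.034, adjusted p = 2.11e-05). Slc48a1, which releases heme from the lysosome, was lower (-0.18 ± 0.034, adjusted p = 0.000699) and the heme exporter Flvcr1 higher by 0.22 ± 0.046, adjusted p = 0.00189. Of the 29 heme and iron genes tested, 3 rose (1 without PBS 1) and 4 fell, with a median of 0.01. In glycolysis, the first enzyme Hk3, a hexokinase, rose by 0.34 ± 0.048, adjusted p = 1.11e-05, and Pkm, pyruvate kinase, fell (-0.16 ± 0.03, adjusted p = 0.000759). Of the 29 pentose phosphate and glycolysis genes 1 rose and 3 fell. The number lower was 2 to 6 over the alternatives, with 6 by DESeq2 or with a minimum count of 50, and 5 by limma-voom or without TMM scaling.

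Against ApoE-deficient exosomes, Hmox1 differed by 0.21 ± 0.033, adjusted p = 0.000183, Pgd by 0.26 ± 0.032, adjusted p = 3.61e-06 and Slc40a1 by 0.19 ± 0.034, adjusted p = 0.00118, each higher than with wild-type exosomes. Hmox1 had 1008, 984 and 947 CPM with ApoE-deficient exosomes, between the PBS and the wild-type exosome libraries. Prdx1, a peroxiredoxin, passed between the exosomes (0.21 ± 0.037, adjusted p = 0.000749) and not against PBS (-0.11 ± 0.037, adjusted p = 0.107). Blvrb and Abcc1 did not pass between the exosomes, at 0.16 ± 0.041, adjusted p = 0.0684 and 0.14 ± 0.035, adjusted p = 0.0614.

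More lysosomal genes rose than fell. Of 92 genes tested in 4 lysosomal lists, 25 rose and 4 fell, against backgrounds of 1.93% and 2.18%, and the median was 0.070. Calls were commoner at high levels, with 48 higher and 37 lower of 249 genes at 500 CPM or more. Lysosomal genes such as Ctsd, Ctsb and Psap lie in that range, so the share over all genes is a low background for them. Without WT 3 the counts were 22 and 4. By role, 5 of 17 proteases and their inhibitors rose and 2 fell, 7 of 34 hydrolases rose, 7 of 24 membrane and sorting genes rose and 2 fell, and 6 of 17 proton pump subunits rose. The aspartic protease gene Ctsd had 6280, 6216 and 6581 CPM with PBS and 7541, 7615 and 7559 CPM with wild-type exosomes. Its groups did not overlap, at a log2 fold change of 0.25 ± 0.023, adjusted p = 3.98e-09. Ctsb, a cysteine protease, had 15224, 15322 and 15729 CPM with PBS and 17344, 17767 and 17842 CPM with wild-type exosomes (0.19 ± 0.022, adjusted p = 1.1e-07). Psap, the precursor of the saposins that help degrade sphingolipids, had 12147, 12268 and 13154 CPM with PBS and 14304, 14883 and 14552 CPM with wild-type exosomes (0.22 ± 0.025, adjusted p = 1.13e-07). Naglu, which removes N-acetylglucosamine from heparan sulfate, had 157, 164 and 188 CPM with PBS and 206, 223 and 209.5 CPM with wild-type exosomes (0.33 ± 0.05, adjusted p = 2.53e-05).

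Pump and sorting genes gave changes of like size. Atp6v1a, the catalytic subunit of the proton pump, had 890.1, 872 and 900.1 CPM with PBS and 1023, 1040 and 1015 CPM with wild-type exosomes, and all exosome libraries were above PBS (0.21 ± 0.029, adjusted p = 4.17e-06). Atp6v0a1 and Tcirg1, alternative membrane subunits of the pump, rose by 0.24 ± 0.033, adjusted p = 6.25e-06 and 0.18 ± 0.031, adjusted p = 0.00023. Gnptab, which adds the mannose 6-phosphate tag that sends enzymes to lysosomes, rose by 0.25 ± 0.04, adjusted p = 4.19e-05, and Igf2r, a receptor for that tag, by 0.17 ± 0.033, adjusted p = 0.00092. Grn, the lysosomal protein progranulin, rose by 0.17 ± 0.027, adjusted p = 4.15e-05. Sort1, a sorting receptor, fell (-0.21 ± 0.044, adjusted p = 0.00182), as did the protease genes Ctsc (-0.36 ± 0.049, adjusted p = 3.09e-06) and Ctsl (-0.17 ± 0.03, adjusted p = 0.000246). Mitf, which encodes a relative of the lysosomal regulators TFEB and TFE3, fell (-0.24 ± 0.05, adjusted p = 0.00189), and neither Tfeb (0.00 ± 0.063, interval -0.13 to 0.13) nor Tfe3 (-0.10 ± 0.041, interval -0.19 to -0.02) passed.

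The lysosomal E-box CACGTGAC is the pattern that TFEB and its relatives bind. It was found in 5 of the 19 raised lysosomal genes with a RefSeq promoter entry, of 25 in all. The share over all promoters was 1.85% and over those of genes tested 3.91%. The windows of Naglu (chr11:101070008-101070037, plus strand) and Lamp1 (chr8:13159122-13159151, plus strand) are shown as examples from an enzyme and a membrane protein, with the match in capitals, on the opposite strand for Naglu.
Naglu: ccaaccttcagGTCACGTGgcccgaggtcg
Lamp1: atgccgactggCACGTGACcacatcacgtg
Ctsd, Gla and Igf2r also held the pattern. The share among lysosomal genes that did not rise was not counted, so these numbers cannot say whether the pattern goes with the rise. The letters describe the sequence and are not evidence of binding. Lamp1, a main membrane protein of lysosomes, rose by 0.11 ± 0.025, adjusted p = 0.0038, and Gla, which encodes an alpha-galactosidase, by 0.22 ± 0.042, adjusted p = 0.000785.

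Of the 92 lysosomal genes, 1 was higher and 2 were lower with ApoE-deficient than with wild-type exosomes. Grn (-0.13 ± 0.027, adjusted p = 0.00478) and Ctsb (-0.10 ± 0.022, adjusted p = 0.0169) were lower with ApoE-deficient exosomes. Ctsd did not pass at -0.09 ± 0.023, adjusted p = 0.0753, with a 95% interval of -0.14 to -0.04, and Psap did not pass at -0.09 ± 0.025, adjusted p = 0.0726, interval -0.14 to -0.04. Ctsb lost its call between the exosomes without WT 2 (adjusted p = 0.093) or 3 (0.15) or EKO 1 (0.141) or 2 (0.129), and Grn without EKO 2 (0.0845).

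Genes of lipid handling divided. Of 25 genes of cholesterol synthesis and uptake, 23 had a positive log2 fold change and 3 passed, among them Insig1 (0.38 ± 0.094, adjusted p = 0.0127), which retains the sterol regulator in the endoplasmic reticulum, and Srebf2 (0.20 ± 0.055, adjusted p = 0.0253), the gene of that regulator. The median of the list was 0.20, and without WT 3 the number that passed was 1. Abca1, which exports cholesterol, had 684, 653 and 669.9 CPM with PBS and 549.9, 593 and 557 CPM with wild-type exosomes, and here the exosome libraries were all lower (-0.24 ± 0.033, adjusted p = 4.05e-06). Lpl, lipoprotein lipase, was lower (-0.23 ± 0.029, adjusted p = 1.85e-06). Nceh1, which frees cholesterol from stored esters, rose by 0.18 ± 0.031, adjusted p = 0.000109. Apoe was at 0.03 ± 0.023 (adjusted p = 0.607, interval -0.01 to 0.08), with 18933, 18963 and 20080 CPM with PBS and 20164, 19452 and 19681 CPM with wild-type exosomes. The PBS and exosome libraries of Apoe overlapped. Insig1 lost its call against PBS without PBS 2 (adjusted p = 0.121) or WT 3 (0.0772), and Srebf2 without PBS 2 (0.272) or WT 2 (0.0706) or 3 (0.146).

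A few fatty acid carrier and storage genes rose. Fabp5, a fatty acid binding protein, had 96.9, 110.0 and 101 CPM with PBS and 136, 137 and 145 CPM with wild-type exosomes. Its groups did not overlap, and the log2 fold change was 0.44 ± 0.051, adjusted p = 2.12e-07. Plin2, which coats lipid droplets, rose by 0.17 ± 0.032, adjusted p = 0.000343, and 4 of the 17 lipid droplet and PPAR-gamma genes rose in all, 2 without WT 3. Fasn, fatty acid synthase, rose by 0.25 ± 0.054, adjusted p = 0.00322. Between the exosomes Abca1 was lower still with ApoE-deficient exosomes (-0.16 ± 0.033, adjusted p = 0.00456), while Fabp5 (-0.09 ± 0.051, adjusted p = 0.672, interval -0.20 to 0.01) did not pass. Abca1 lost its call between the exosomes without WT 2 (adjusted p = 0.107).

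Several receptors of innate immunity fell. Cx3cr1 (ENSMUSG00000052336, chr9:119901616-120069879, minus strand), the fractalkine receptor, had 297, 305 and 317 CPM with PBS and 196, 198 and 203 CPM with wild-type exosomes. The exosome libraries were far below the PBS libraries, at a log2 fold change of -0.62 ± 0.039, adjusted p = 1.46e-13. Cd14, the coreceptor that hands lipopolysaccharide to TLR4, had 395, 373 and 400.1 CPM with PBS and 314, 294 and 302 CPM with wild-type exosomes (-0.36 ± 0.04, adjusted p = 1.1e-07). Tlr2, the receptor of bacterial lipoproteins, had 113, 94.1 and 98.5 CPM with PBS and 78.7, 78.6 and 78.8 CPM with wild-type exosomes (-0.37 ± 0.062, adjusted p = 0.000101), and Tlr9, an endosomal sensor of DNA, had 93.9, 96.03 and 98.01 CPM with PBS and 81.5, 74.2 and 75.8 CPM with wild-type exosomes (-0.31 ± 0.059, adjusted p = 0.000513). Of 22 Toll-like receptors and adaptors 6 fell (background 2.18%), with a median of -0.07. Tlr4 was at 0.11 ± 0.051 (interval 0.01 to 0.21) and Tlr7 at 0.09 ± 0.043 (interval 0.00 to 0.18), neither past the threshold.

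Several C-type lectin receptors were lower. Of 14 in the list 6 fell (background 2.18%), with a median of -0.19. The number that fell was 3 without PBS 1, 3 without PBS 2 and 3 without WT 1. Clec4a1, a relative of the dendritic cell immunoreceptor DCIR, had 50.6, 46.6 and 42.5 CPM with PBS and 24.5, 30.2 and 25.1 CPM with wild-type exosomes. All exosome libraries were lower, at a log2 fold change of -0.81 ± 0.096, adjusted p = 3.31e-07. Clec4a3 had 26.2, 26.5 and 25.5 CPM with PBS and 18.3, 16.04 and 17.04 CPM with wild-type exosomes (-0.60 ± 0.11, adjusted p = 0.000387), and Clec4n, which encodes the fungal sensor Dectin-2, had 30.3, 27.1 and 24.9 CPM with PBS and 21.1, 16.8 and 15.8 CPM with wild-type exosomes (-0.61 ± 0.12, adjusted p = 0.000645). Clec4a1, Clec4a2 and Clec4a3 are close paralogs, so reads shared between them make their separate values uncertain. Tmem176b, a channel gene of intracellular membranes, had 68.99, 48.1 and 62.7 CPM with PBS and 36.8, 35.2 and 37.2 CPM with wild-type exosomes (-0.72 ± 0.10, adjusted p = 6.01e-06), and its neighbour Tmem176a fell (-0.73 ± 0.14, adjusted p = 0.000767). Pilra, an inhibitory paired receptor, had 7.80, 10.8 and 8.33 CPM with PBS and 4.36, 3.96 and 4.77 CPM with wild-type exosomes (-1.04 ± 0.22, adjusted p = 0.00268), again uncertain because of near copies. Clec4a2 lost its call against PBS without PBS 1 (adjusted p = 0.0551) or 2 (0.0945) or 3 (0.0769) or WT 1 (0.188) or 3 (0.15).

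Some NF-kB feedback genes were lower. Of 32 NF-kB genes tested 9 fell (background 2.18%), with a median of -0.13, but 5 fell without WT 3 and 5 without PBS 1. Nfkbiz, an atypical inhibitor protein of NF-kB that also helps to activate some targets, had 33.4, 31.6 and 30.8 CPM with PBS and 24.8, 19.7 and 16.3 CPM with wild-type exosomes. The exosome libraries were all lower and widely spread (-0.66 ± 0.12, adjusted p = 0.000225). Tnip3, which restrains NF-kB signalling, had 45.3, 45.04 and 43.8 CPM with PBS and 30.3, 29.5 and 32.4 CPM with wild-type exosomes (-0.54 ± 0.087, adjusted p = 5.82e-05), and Nfkbie, a gene of an NF-kB inhibitor, had 26.6, 29.8 and 29.7 CPM with PBS and 19.2, 21.3 and 21.5 CPM with wild-type exosomes (-0.47 ± 0.10, adjusted p = 0.00353). The cytokine Tnf was at -0.35 ± 0.15 and did not pass (interval -0.64 to -0.05), nor did Nfkbia at -0.16 ± 0.072 (interval -0.31 to -0.02). Of 25 immediate early genes 3 fell and 1 rose (2 by DESeq2, with a replicate block or without PBS 3), with a median of -0.06. Fos, of the AP-1 factor, had 103, 110.3 and 114 CPM with PBS and 74.3, 84.7 and 72.3 CPM with wild-type exosomes (-0.50 ± 0.062, adjusted p = 8.26e-07), Junb fell (-0.22 ± 0.048, adjusted p = 0.00323), and Jun rose by 0.20 ± 0.041, adjusted p = 0.00131. The chemokine Ccl9 had 205, 202 and 198 CPM with PBS and 163, 162 and 152 CPM with wild-type exosomes (-0.34 ± 0.043, adjusted p = 1.31e-06), and Cxcl16 fell (-0.27 ± 0.037, adjusted p = 4.05e-06).

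Promoter windows of Tnip3 and Nfkbie, whose values are given above, show the NF-kB pattern GGAANNNCC. Searched on both strands of the 250 bases before the gene start, it was found in 5 of the 7 fallen NF-kB genes with a RefSeq entry, against 15.7% of all promoters and 21.7% of those of genes tested. The other 3 with a match were Icam1, Tnfaip2 and Bcl3. The Tnip3 window lies at chr6:65590335-65590364 and the Nfkbie window at chr17:45555585-45555614, both written on the plus strand. Capitals mark the match, which for Nfkbie lies on the opposite strand, and Nfkbie held another match beside this window.
Tnip3: agacatcctgGGAAATCCCagttacatgga
Nfkbie: cagcaaacagGGGGATTCCggaggggcggg
The match starts 53 bases before the gene start of Tnip3 and 105 bases before that of Nfkbie. These letters are common and describe the sequence alone. The share among NF-kB list members that did not fall was not counted. Bcl3 lost its call against PBS without PBS 2 (adjusted p = 0.0955) or WT 2 (0.119) or 3 (0.127), Tnfaip2 without PBS 1 (0.0809) or WT 2 (0.0619), and Icam1 without PBS 1 (0.134) or 3 (0.0735) or WT 1 (0.113) or 3 (0.137).

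Some complement and macrophage identity genes fell as well. C3, the central complement component, had 227, 201 and 194 CPM with PBS and 147, 155 and 144 CPM with wild-type exosomes. The groups did not overlap, at a log2 fold change of -0.48 ± 0.053, adjusted p = 1.1e-07. C1qa, a chain of the first component, had 553, 563 and 548 CPM with PBS and 449.7, 459 and 462 CPM with wild-type exosomes (-0.28 ± 0.032, adjusted p = 1.47e-07). Of 14 complement genes 5 fell (background 2.18%). Csf1r, the M-CSF receptor, had 4192, 3920 and 4042 CPM with PBS and 3517, 3497 and 3399 CPM with wild-type exosomes (-0.22 ± 0.027, adjusted p = 4.54e-07). Adgre1, which encodes F4/80, fell (-0.16 ± 0.029, adjusted p = 0.000423), as did Lyz2, lysozyme (-0.13 ± 0.026, adjusted p = 0.00176), and the lineage factor Maf (-0.16 ± 0.033, adjusted p = 0.00125). Of 27 identity genes 3 rose (1 without WT 3, 1 without PBS 2 and 1 in the fit of the 6 libraries) and 8 fell. The backgrounds were 1.93% and 2.18%, and the median of the list was -0.10. Calls were commoner at high levels, with 37 lower of 249 genes at 500 CPM or more, and Csf1r, Lyz2 and Adgre1 lie in that range. Spi1, the gene of the lineage regulator PU.1, did not pass (-0.10 ± 0.033, interval -0.17 to -0.04). The summed level of the 12 defining macrophage markers (here and for other markers in CPM of the library total, without TMM) was 23790 to 24950 CPM with PBS and 21770 to 22410 CPM with exosomes, and 6 of the 12 fell while 1 rose, the endosomal glycoprotein gene Cd68 (0.09 ± 0.028, adjusted p = 0.049). In bulk RNA, fewer cells of a type and less RNA per cell cannot be told apart. Cd68 lost its call against PBS without PBS 1 (adjusted p = 0.102) or 2 (0.194) or WT 3 (0.32) or EKO 2 (0.0651) and under no filter on low counts (0.0512) or no scaling beyond library size (0.0709) or only the 6 libraries compared (0.0651).

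Markers of neutrophils and stromal cells overlapped between the groups. Neutrophil markers summed to 206.6 to 213.6 CPM with PBS and 200.1 to 212.2 CPM with exosomes, mostly from Csf3r, and stromal markers to 28.6 to 85.8 and 44.5 to 58.1 CPM. B cell markers were lower with exosomes, at 29.0 to 40.2 against 47.2 to 50.6 CPM, mostly from Ighm, while Cd79a and Igll1 were at 0. Endothelial markers were higher, at 178.6 to 205.8 against 144.0 to 166.1 CPM, mostly from Vwf, while Emcn and Cldn5 were at 0. Of the mast cell, basophil and eosinophil markers 11 of 13 were at 0, of the erythroid markers 7 of 10, and T and NK markers summed to under 1 CPM. The part of any of these cells in the results was not tested.

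**Figure D3:**
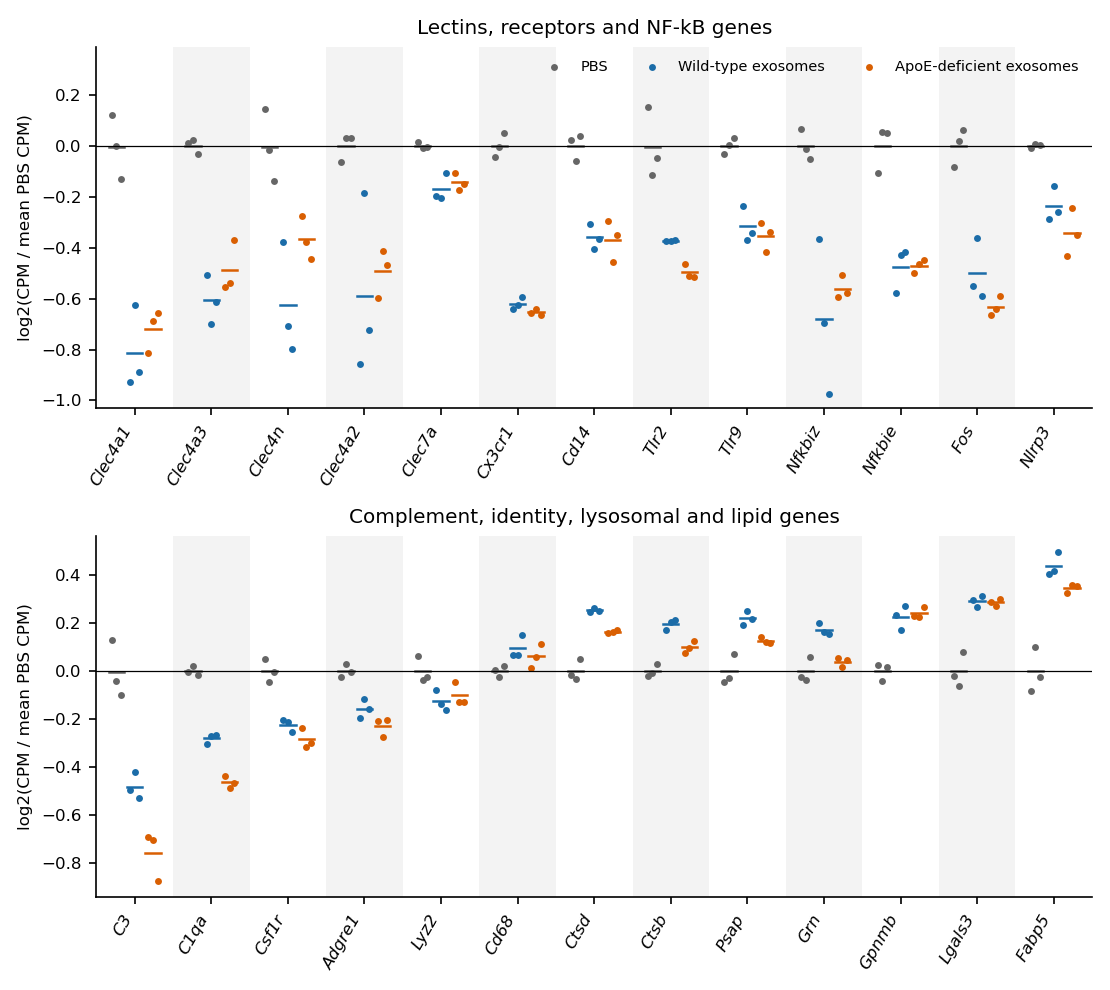
Each library's CPM over the mean of the PBS libraries, as log2 (vertical axis), for 13 receptor, NF-kB and early response genes (top) and 13 complement, identity, lysosomal and lipid genes (bottom); points are libraries and bars are means of the 3 log2 values of a group. Cx3cr1 and Cd14 lie at like levels with both kinds of exosomes, and C3 and C1qa are lower with ApoE-deficient than with wild-type exosomes.

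For several immune genes that fell, no difference between the exosomes was detected. Cx3cr1 differed by -0.03 ± 0.039, adjusted p = 0.907, with a 95% interval of -0.11 to 0.05 on the log2 scale, and Cd14 by -0.01 ± 0.04, adjusted p = 0.989, interval -0.09 to 0.07. The intervals were wider for Clec4a1 (-0.11 to 0.29), Clec4n (0.01 to 0.49), Nfkbiz (-0.14 to 0.33) and Nfkbie (-0.21 to 0.22), and none of the 4 passed. For C3 and C1qa a difference passed and took the gene further from PBS. C3 had 129, 128 and 113 CPM with ApoE-deficient exosomes, below its level with wild-type exosomes (-0.27 ± 0.054, adjusted p = 0.00399), and C1qa was lower too (-0.18 ± 0.032, adjusted p = 0.000877). C3 lost its call between the exosomes without WT 2 (adjusted p = 0.0708) or EKO 3 (0.0702).

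**Figure D4:**
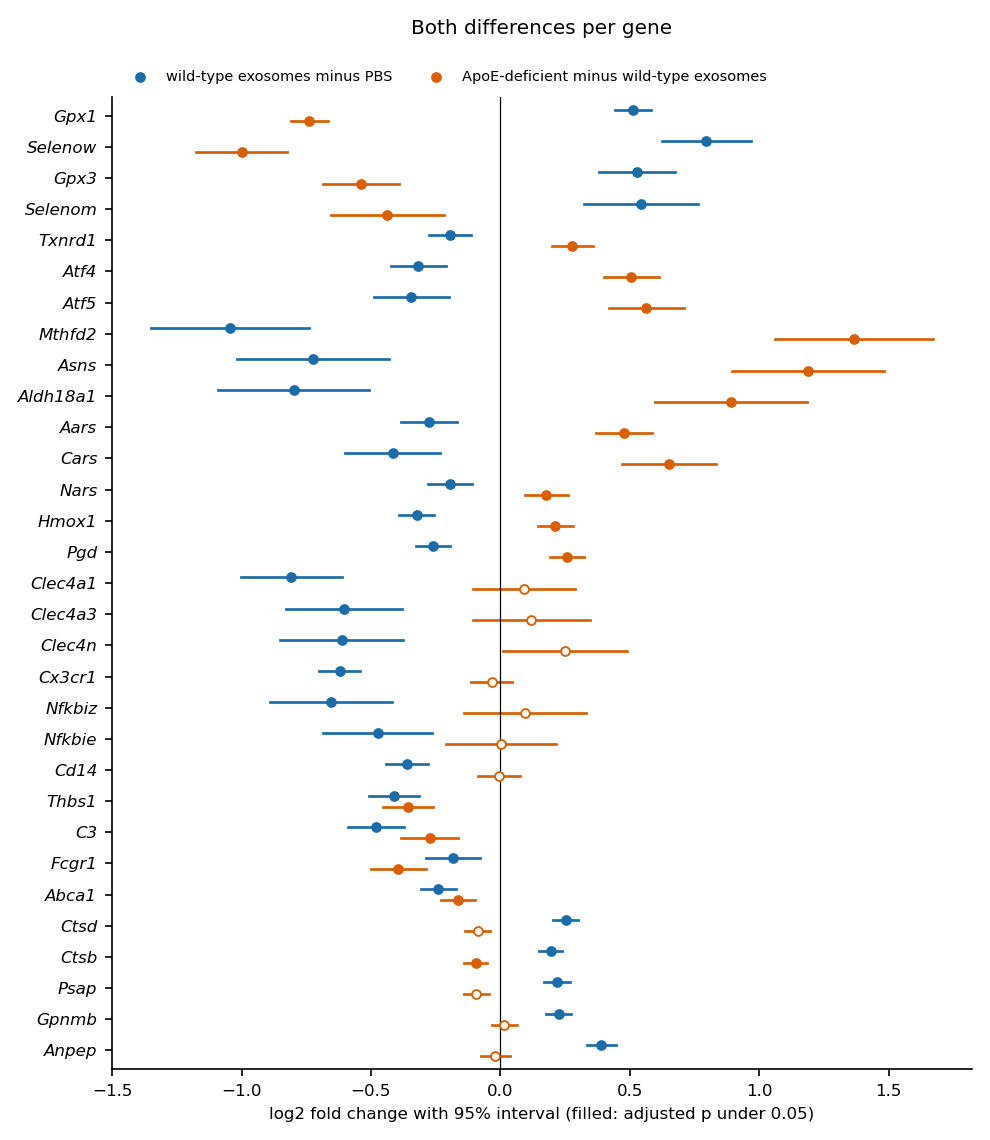
Log2 fold change of wild-type exosomes over PBS (blue) and of ApoE-deficient over wild-type exosomes (orange) with 95% intervals, for 31 genes (vertical axis); filled points passed an adjusted p of 0.05. Selenoprotein, ATF4 and NRF2 genes have both points filled on opposite sides of 0, whereas lectins, Cx3cr1 and Cd14 have an open orange point.

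Matrix and adhesion genes changed in both directions. Of 22 matrix genes 4 rose (2 without PBS 2) and 2 fell, with a median of -0.01. The backgrounds, here and for the adhesion genes, were 1.93% higher and 2.18% lower. Thbs1, thrombospondin, had 273, 283 and 296 CPM with PBS and 193, 229 and 219 CPM with wild-type exosomes. The exosome libraries were all lower (-0.41 ± 0.048, adjusted p = 2.12e-07), and with ApoE-deficient exosomes the level was lower again (-0.36 ± 0.048, adjusted p = 1.4e-05). Lgals3, galectin-3, had 2663, 2587 and 2853 CPM with PBS and 3318, 3248 and 3355 CPM with wild-type exosomes (0.29 ± 0.028, adjusted p = 8.86e-09), and Tgfbi, a secreted adhesion protein, fell (-0.36 ± 0.056, adjusted p = 9.01e-05). Gas6, a ligand of the receptors that clear dying cells, had 656, 643 and 669 CPM with PBS and 792, 796 and 778 CPM with wild-type exosomes (0.26 ± 0.03, adjusted p = 1.4e-07), and Mfge8, which bridges dying cells to integrins, rose by 0.26 ± 0.05, adjusted p = 0.000842. Gpnmb, a membrane glycoprotein of lysosome-rich macrophages, had 12674, 12113 and 12586 CPM with PBS and 14642, 14001 and 15036 CPM with wild-type exosomes (0.22 ± 0.024, adjusted p = 6.78e-08), and Spp1, osteopontin, rose by 0.20 ± 0.028, adjusted p = 4.99e-06. Itgam, the CD11b integrin chain, was lower (-0.36 ± 0.057, adjusted p = 5.91e-05), with the overlap given above. Of 22 integrin and adhesion genes 2 rose (0 without WT 1, and 1 without PBS 2, PBS 3, WT 3 or any EKO library, with no filter, with no scaling or with the 6 libraries alone) and 5 fell, and the number that fell was 1 without PBS 1, 2 without WT 1 and 3 without WT 2.

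Other genes of the largest or best supported changes belong to no single pathway. Anpep (ENSMUSG00000039062, chr7:79821803-79861059, minus strand), the surface aminopeptidase CD13, had 1547, 1587 and 1614 CPM with PBS and 2057, 2044 and 2122 CPM with wild-type exosomes, and all exosome libraries were higher (0.39 ± 0.028, adjusted p = 3.47e-12). Rapgef3 had 4.12, 4.53 and 3.20 CPM with PBS and 5.61, 9.85 and 9.40 CPM with wild-type exosomes (1.07 ± 0.23, adjusted p = 0.00238). Plxna1, a semaphorin receptor, rose by 0.28 ± 0.028, adjusted p = 9.34e-09, the mechanically gated channel gene Piezo1 by 0.30 ± 0.033, adjusted p = 1.02e-07 and the creatine carrier gene Slc6a8 by 0.33 ± 0.037, adjusted p = 1.4e-07. Tent5c, an mRNA poly(A) polymerase gene, had 63.2, 64.9 and 62.8 CPM with PBS and 92.4, 89.03 and 102 CPM with wild-type exosomes (0.57 ± 0.065, adjusted p = 1.4e-07). Hpgd, which inactivates prostaglandins, had 117, 104 and 95.1 CPM with PBS and 77.9, 62.1 and 61.4 CPM with wild-type exosomes (-0.65 ± 0.10, adjusted p = 0.00201). Ptprj, a receptor phosphatase, fell (-0.31 ± 0.034, adjusted p = 1.1e-07) as did Rassf4 (-0.36 ± 0.035, adjusted p = 9.34e-09). Pcna, the DNA polymerase clamp, rose (0.32 ± 0.05, adjusted p = 3.54e-05), while Mki67 (-0.06 ± 0.058, interval -0.18 to 0.06) did not pass. Slc15a3, an endolysosomal peptide carrier, rose by 0.17 ± 0.036, adjusted p = 0.00164 and was lower with ApoE-deficient exosomes (-0.19 ± 0.036, adjusted p = 0.00202). Hspa5, the main chaperone of the endoplasmic reticulum, rose by 0.20 ± 0.034, adjusted p = 0.000149, and Sdcbp, the exosome-forming protein syntenin, by 0.18 ± 0.031, adjusted p = 0.000208.

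Several pathways gave few calls or none. Of 75 cytosolic ribosomal protein genes 0 passed in edgeR, DESeq2 or limma-voom and 4 had an unadjusted p under 0.05, with a median of -0.01. Of 40 mitosis genes 0 passed with these tools and 1 had an unadjusted p under 0.05, with a median of -0.02. Of 68 nuclear genes of the respiratory chain 2 rose (0 to 2 over the alternatives), of 36 proteasome genes 1 (1 to 2), of 34 exosome and ESCRT genes 2 (2 to 2), and of 49 DNA replication genes 3 (1 to 4). Of 49 interferon-stimulated genes 2 fell (1 to 4 over the alternatives), with a median of -0.08. Samhd1, which depletes nucleotides, had a log2 fold change of -0.18 ± 0.037, adjusted p = 0.00164. Cd74, the invariant chain of MHC class II, had 66.3, 65.9 and 72.7 CPM with PBS and 55.8, 52.3 and 42.02 CPM with wild-type exosomes (-0.45 ± 0.082, adjusted p = 0.000384), while H2-Aa (-0.34 ± 0.15, interval -0.65 to -0.03) and H2-Ab1 (-0.16 ± 0.14, interval -0.45 to 0.12) did not pass. The 7 mitochondrial mRNAs tested lay between -0.13 ± 0.063 for mt-Nd5 and -0.00 ± 0.097 for mt-Nd6 on the log2 scale, with 0 calls in edgeR or DESeq2, 1 in limma-voom and 2 at an unadjusted p under 0.05. The other 6 had 0 to 7 counts per library and were not tested. Genes with many pseudogenes were listed at low levels, such as Rps6 at a mean of 0.751 CPM with PBS, so the ribosomal list may rest on part of its reads.

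**Figure D5:**
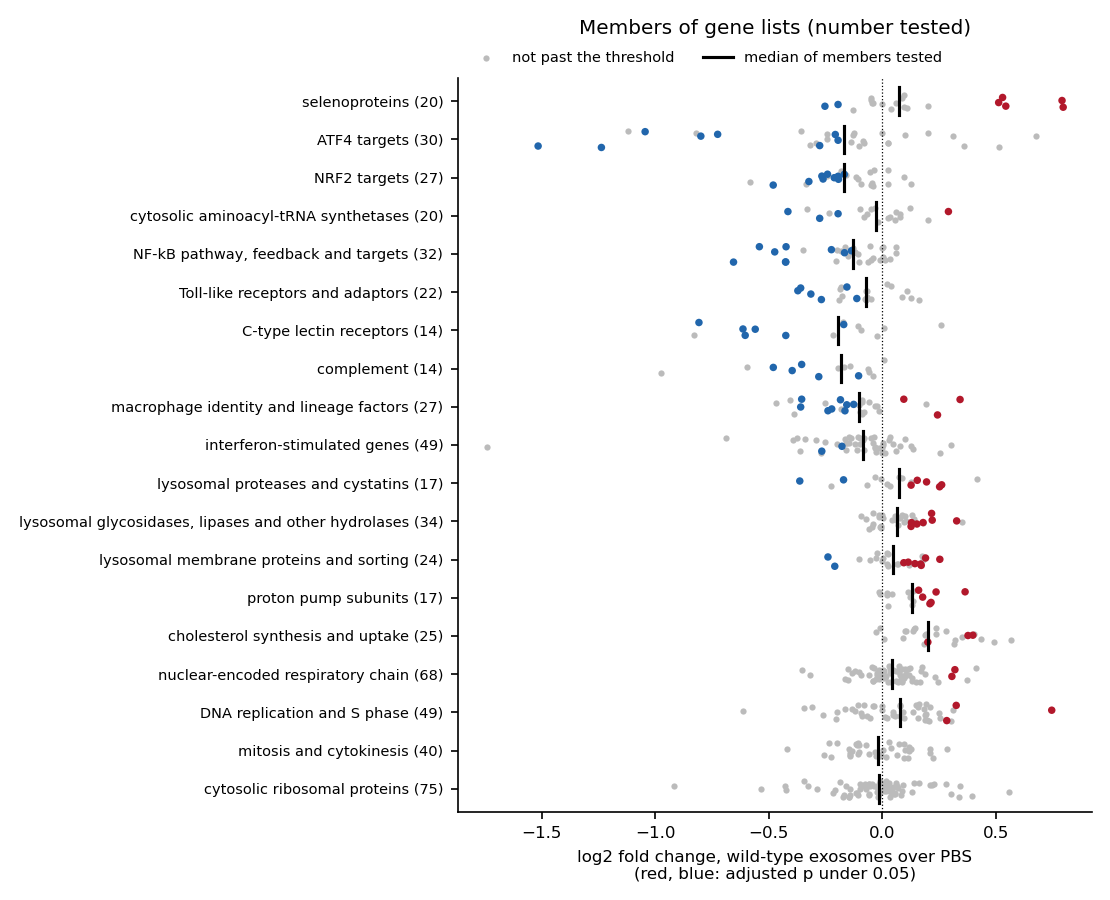
Log2 fold change of wild-type exosomes over PBS (horizontal axis) for the members of 19 gene lists, with the number tested in parentheses; grey points did not pass the threshold, red and blue points passed as higher and lower, and black bars are list medians. Called ATF4 and NRF2 targets all lie left of 0, called proton pump and cholesterol genes right of 0, and the ribosomal and mitosis lists hold no called gene.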

How the data were processed

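Total mRNA of 9 wild-type BMDM cultures was sequenced from libraries made with the Universal Plus mRNA-Seq kit after RNeasy Mini extraction, per the labels' protocols. The authors deposited whole-number read counts per gene, not normalized. STAR 2.7.5c and the build GRCm38 stand in the submitters' processing notes, and the counting tool, the strand setting and the annotation release were not given in the sources used here. Symbols of all 55536 gene IDs and gene positions came from an annotation of GRCm38, and promoters came from RefSeq on GRCm38.p6.

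All 9 libraries entered 1 fit in edgeR 4.0.16 (R 4.3.3) with TMM scaling and robust quasi-likelihood tests, after filterByExpr with a minimum count of 10, and a gene was called at a Benjamini-Hochberg adjusted p under 0.05. Folds are log2 fold changes ± standard error (the fold divided by the square root of the test's F), and CPM are counts scaled to a common library size after TMM, or to the library total alone for summed markers. The biological coefficient of variation was 12%. In simulated counts 86 of 100 genes changed by 1.5-fold and 99 of 100 changed by 2-fold were recovered, with 13 false calls of 13431 genes (edgeR, wild-type exosomes against PBS). The changed genes were drawn from those with a mean of at least 5 CPM. Smaller changes, such as most of those called here, and changes in genes below that level were not simulated. DESeq2 1.42.0 and limma-voom (limma 3.58.1), other scaling and filters, a replicate block and leaving out each library were alternatives. No pair of replicates agreed within sampling noise (chi-square per gene 5.57 to 8.2).

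The genes named are members of 56 pathway and 10 cell type lists with a call, the 15 of largest fold and the 15 of smallest p in each direction with a mean of at least 5 CPM and no overlap between groups, up to 10 in each direction by the difference between the exosomes, and Apoe. List members without a call were named as contrast, after their values were seen. The members and lists were chosen with earlier results of these data known.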

Additional observations from a re-analysis of the deposited data

How the results depend on the processing

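The number of genes that passed between wild-type exosomes and PBS (568) was 477 to 761 over scaling, filter and test alternatives, with 761 by DESeq2 and 477 with the 6 libraries alone, and 408 to 536 without 1 library. With no scaling 240 were higher and 341 lower. The number between the exosomes (96) moved further. It was 157 by DESeq2 and 52 to 109 without 1 library, with 52 without EKO 1, 56 without EKO 2, 59 without WT 2 and 56 without WT 3. The cause was not tested. Over the genes named by rule and all alternatives, 3206 values kept direction and side of the threshold, 327 kept direction and lost the threshold, and 0 reversed. The median of all genes was -0.0033 on the log2 scale in the reported fit and -0.0121 to 0.002 over the alternatives.

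Libraries share replicate numbers across groups, but deviations from the group means of same-numbered libraries correlated at -0.035 to 0.0402, so the numbers were not taken to pair them. With a replicate block 669 genes passed against PBS, 323 higher and 346 lower, and 144 between the exosomes.

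Genes under 5 CPM had intervals too wide for the changes seen elsewhere, and differences in RNA per cell cannot be read from counts scaled to library size.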

Other observations

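Other gene groups were measured between PBS and wild-type exosomes, and several held a larger share of calls than all genes tested. They are given as counts and values, to be read against the 1.93% of all genes tested that rose and the 2.18% that fell. A range after a count is that over the 17 alternatives.

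Some chaperone and metabolic genes changed. Of 30 unfolded protein response genes 3 rose (1 to 5), Hspa5 among them. Of 18 heat shock chaperones Ahsa1, an activator of HSP90, rose, with 178, 170.0 and 185 CPM with PBS and 203, 213 and 216 CPM with wild-type exosomes (0.25 ± 0.046, adjusted p = 0.000568). The groups of Ahsa1 did not overlap. In the citric acid cycle 1 of 25 genes rose (1 to 2), the malate dehydrogenase gene Mdh2 (0.24 ± 0.054, adjusted p = 0.00495), and 1 fell (0 to 1). Of 18 genes of fatty acid synthesis 2 rose (1 to 3) and 1 fell (0 to 1). Of 20 genes of cholesterol efflux 3 rose (1 to 3) and 3 fell (2 to 4). Npc1, which moves cholesterol out of lysosomes, was among those that rose (0.14 ± 0.033, adjusted p = 0.00532). Npc1 lost its call against PBS without PBS 2 (adjusted p = 0.0687).

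Chemokines, their receptors and inhibitory receptors changed in both directions. Of 12 chemokines 1 rose (0 to 1) and 3 fell (2 to 3), and of 24 chemoattractant and purinergic receptors 1 rose (0 to 2) and 2 fell. Of 24 paired and inhibitory receptors 3 rose (0 to 5) and 5 fell (3 to 5). Cd52, a small glycoprotein of leukocytes, had 145, 147 and 144 CPM with PBS and 118, 121 and 127 CPM with wild-type exosomes (-0.25 ± 0.048, adjusted p = 0.000568). Every exosome library of Cd52 was below every PBS library. Il1rn, the IL-1 receptor antagonist, rose (0.66 ± 0.16, adjusted p = 0.0115). Il1rn lost its call against PBS without PBS 3 (adjusted p = 0.065) or WT 3 (0.0767).

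A few regulators also moved. Bhlhe41, a repressor of the clock, rose (0.24 ± 0.047, adjusted p = 0.000699), and 2 rose (1 to 2) and 1 fell (0 to 1) of the 17 genes in the clock list. Of 19 genes of the hypoxia response 2 fell (0 to 2). Of 17 p53 targets the kinase gene Plk2 rose, with 139, 158 and 150.1 CPM with PBS and 175, 191 and 185 CPM with wild-type exosomes (0.30 ± 0.05, adjusted p = 0.000121), and 1 fell (0 to 3). Of 24 endosomal Rab GTPases Rab7b rose (0.16 ± 0.037, adjusted p = 0.00503). Rab7b lost its call against PBS without PBS 1 (adjusted p = 0.0514).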
